A study of Mytilus galloprovincialis with 18 samples.

Results

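The gene studied here encodes a small heat shock protein, small HSP24.1. It was read by 2 probes of the mussel cDNA array, Myt01-011G05 and Myt01-013C12, out of 1920 probe IDs. These IDs outnumber the mussel probes that the paper counts on the array. The paper also names unrelated controls on it, and ranks, shares and adjusted p values here are over all IDs. Both probes of small HSP24.1 were chosen by their name, and both are described here in all the mussels and doses of the series. The names come from the study's own tables of probes that it had selected on these samples, in which the 2 probes stand under different transcript clusters. Both passed every filter and entered every fit.

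The animals were adult Mediterranean mussels, Mytilus galloprovincialis, of both sexes, taken offshore in late spring. They were kept for 48 h with a mixture of Cd, Cu and Hg chlorides at 50, 100 or 200 nM, and gill RNA of 3 mussels per dose was examined one by one. The reference on every array was a single pool of gill RNA from 5 control mussels that received no metals. Each mussel was hybridised on a slide that carried the array in duplicate, as array A (mussel in Cy3, pool in Cy5) and as array B (dyes exchanged), so that 9 mussels gave 18 arrays. Each dose was 1 tank, so dose and tank cannot be told apart. The pool is 1 control sample, so the tests against it leave out the differences between control mussels.

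Small heat shock proteins are ATP-independent chaperones. They bind proteins that begin to unfold, hold them soluble in large oligomers and pass them to the ATP-driven chaperones of the HSP70 machinery for refolding. Their genes are typically quiet in unstressed cells and are switched on by heat and other stresses that damage proteins, and metals such as Cd, Cu and Hg, which react with protein thiols, are among the known triggers of the heat shock response in animals. The gill of a mussel is a ciliated epithelium that filters the surrounding water and is directly exposed to dissolved metals.

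Values are given as log2 of the ratio between treated mussel and control pool, so that 0 means equal signal, 1 a doubled ratio and -1 a halved one. Each is the mean of the 2 spots of a probe and of arrays A and B of a mussel. The unit of replication is the mussel. A probe counts as changed where its p value, from limma across all probes and adjusted by Benjamini and Hochberg's method, lies under 0.05. Across the 18 arrays, the median spot intensity was 361 to 1334 in the mussel channel and 245 to 2787.5 in the pool channel. All 36 spots of each probe of small HSP24.1 were more than 2 SD above local background in both channels and none was saturated. The pool spots on array A of 100 nM replicate 2 came closest to that limit. They were at 4.17 and 2.10 SD for Myt01-011G05 and at 2.23 and 2.41 SD for Myt01-013C12. That array gave the highest array ratios of both probes at 100 nM, 1.69 and 2.39, against 1.07 and 1.63 on array B of the same mussel.

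One mussel stood apart. Over all probes, 50 nM replicate 3 tended to move opposite to the other mussels. Its mean correlation with them was -0.145 on the A arrays, with a range of -0.314 to 0.0614, while the remaining pairs averaged 0.200. On the B arrays the mean was -0.139, with a range of -0.246 to 0.0275, while the remaining pairs averaged 0.238. The lowest of these values passes -0.3, and it was not settled whether the channels of this mussel are exchanged. Results on small HSP24.1 are given as labelled, and part of those that changed with the sign of this mussel also with it turned. Counts of spots and arrays, places among the probes of a mussel, correlations between arrays and the authors' values are given as labelled only.

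The scanner files state in their headers that the data are background subtracted, while the only one that also lists ratios gives, for 3836 of its 3840 spots, the ratio of intensity minus local background. At most 1.25% of the spots of any array and channel lay below their local background. Intensities were therefore taken as not yet subtracted on all 18 arrays, which was tested on that 1 file only, and the estimates without subtraction are given with the results. Over the 12 spots of a dose, the signal of Myt01-011G05 above background read 384 to 5199 (median 792) in the mussels and 284 to 2261 (median 703) in the pool at 50 nM. It read 485 to 3370 (median 1680) in the mussels and 367 to 2107 (median 864) in the pool at 100 nM, and 2022 to 14858 (median 4034) in the mussels and 729 to 2327 (median 1206) in the pool at 200 nM. Before normalization the spots of mussels and pool thus overlapped at each dose, least at 200 nM. After normalization, the log2 ratio of single spots was above 0 in 11 of 12 at 50 nM, 11 of 12 at 100 nM and 12 of 12 at 200 nM. Myt01-013C12 read 210 to 910 (median 606) in the mussels and 193 to 722 (median 548) in the pool at 50 nM. At 100 nM it read 257 to 1718 (median 781) in the mussels and 214 to 866 (median 411) in the pool, and at 200 nM 493 to 2170 (median 1178) in the mussels and 219 to 669 (median 515) in the pool. Here the normalized log2 ratio was above 0 in 5, 9 and 12 of 12 spots at the 3 doses, from low to high. For either probe, some spots with a normalized ratio above 0 had the higher signal above background in the pool. Among all probes of an array, Myt01-011G05 lay at a median percentile of 77.7 in the mussels and 66.1 in the pool, and Myt01-013C12 at 62.2 in the mussels and 24.6 in the pool.

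**Figure D1:**
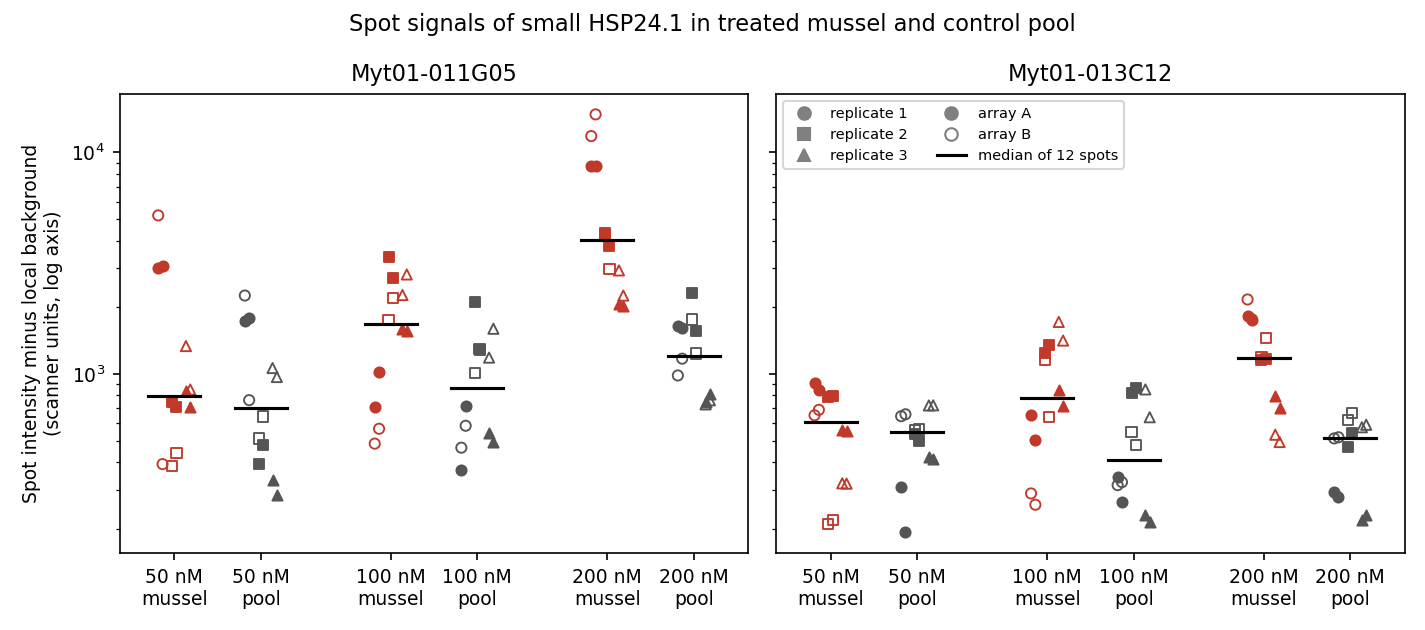
Spot intensity minus local background (scanner units, log axis) of each probe in the treated mussel and in the control pool, by dose. Shapes are mussels, filled symbols array A, open symbols array B, and lines the median of 12 spots. At 200 nM the medians are 4034 in the mussels and 1206 in the pool for Myt01-011G05, and 1178 and 515 for Myt01-013C12.

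Myt01-011G05 gave a ratio above 0 in 9 of 9 mussels. At 50 nM the log2 ratio was 0.89, 0.53 and 0.69 in replicates 1, 2 and 3. At 100 nM it was 0.23, 1.38 and 0.90, and at 200 nM it was 2.93, 1.29 and 1.67. In fold terms, the 200 nM mussels had 7.63, 2.45 and 3.18 times the signal of the pool, and the weakest of all mussels, 100 nM replicate 1, had 1.17 times. In bulk gill RNA, more transcript per cell and more cells that carry the transcript cannot be told apart. All 9 mussels lay above the pool for 10 of the 1920 probes (0.521%). With 50 nM replicate 3 turned, its value becomes -0.69 and 8 of 9 mussels lie above 0; the 8 other mussels all lay above 0 for 3.65% of probes.

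Myt01-011G05 stood near the top of the array in most mussels, and Myt01-013C12 in 6 of 9. Among the ratios of the 1920 probes, from the highest down, Myt01-011G05 was 27th, 177th and 43rd in replicates 1, 2 and 3 at 50 nM. At 100 nM it was 417th in replicate 1, where the ratio was close to 0, 10th in replicate 2 and 23rd in replicate 3. At 200 nM it was 2nd, 11th and 6th. Myt01-013C12 was 9th, 1107th and 1727th at 50 nM, 1600th, 3rd and 7th at 100 nM, and 6th, 6th and 28th at 200 nM.

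Averaged by dose, Myt01-011G05 rose at 200 nM. Its means at 50 and 100 nM lay above the pool as well but did not pass. The mean was 0.71 ± 0.18 at 50 nM (SD, n = 3 mussels), 1.63-fold over the control pool with a 95% confidence interval of 1.07 to 2.49-fold and an adjusted p of 0.992 from limma. At 100 nM it was 0.84 ± 0.58, 1.79-fold (1.17 to 2.73), with an adjusted p of 0.360, and at 200 nM 1.96 ± 0.86, 3.90-fold (2.56 to 5.96), with an adjusted p of 0.0226. At 200 nM the probe had the lowest p of all and the 3rd highest estimate, and 2.03% of all probes passed there in either direction and 0.885% as higher. No probe passed at 50 or 100 nM with limma (0% called), while 72 probes at 50 nM and 183 at 100 nM had an unadjusted p under 0.05. One-class SAM is the test named in the study's methods. A version coded here, limited to the sign flips of 3 mussels per dose, called 0 probes at 50 nM and 23 at 100 nM. Limma with 50 nM replicate 3 turned called 5 probes at 50 nM and 15 at 100 nM, without that mussel 2 and 9, and with the mussel as a random block over 18 arrays 0 and 18. Neither probe of small HSP24.1 was among any of these. The paper, with its own processing and SAM run, lists Myt01-011G05 as over-expressed at 50, 100 and 200 nM. It lists the other probe of small HSP24.1 as over-expressed at 100 and 200 nM. The calls at 50 and 100 nM thus differ between the paper and the tests used here, and the reason was not tested. The unadjusted p of Myt01-011G05 was 0.0271 at 50 nM and 0.0113 at 100 nM. With 50 nM replicate 3 turned, the 50 nM mean was 0.25 ± 0.83.

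The call at 200 nM rested on few animals. Without replicate 1, the mussel with the highest ratio, the mean of the other two was 1.48 and the adjusted p was 0.107, and without replicate 3 the mean was 2.11 and the adjusted p 0.105. When the error was widened by the sampling spread that 5 pooled mussels would have, the adjusted p was 0.180, and no probe of the array passed. Without 200 nM replicate 1 or 3 no probe passed either, and without replicate 2 Myt01-011G05 was the only one, with an adjusted p of 0.0435.

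As labelled, Myt01-013C12 differed more between mussels of the same dose than Myt01-011G05 at 50 and 100 nM, but not at 200 nM. The SD was 1.04 against 0.18 at 50 nM, 1.20 against 0.58 at 100 nM and 0.78 against 0.86 at 200 nM. With 50 nM replicate 3 turned, the SD at 50 nM was 0.86 against 0.83, so the contrast at that dose rests on the sign of 1 mussel. At 50 nM the log2 ratio of Myt01-013C12 was 1.58, -0.09 and -0.34 in replicates 1, 2 and 3. At 100 nM it was -0.31, 2.01 and 1.37, and at 200 nM it was 2.49, 1.44 and 0.95. At both lower doses, then, single mussels stood beside animals at or under the level of the pool, and only at 200 nM were all 3 above it. Such a pattern, 3 of 3 above the pool at 200 nM, was found for 21.2% of probes. The 100 nM mussel under the pool was replicate 1, whose array A names another control image than the other arrays. Its arrays A and B read -0.57 and -0.040.

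The means of Myt01-013C12 climbed with the dose but did not pass. It averaged 0.38 ± 1.04 at 50 nM (SD, n = 3 mussels), 1.30-fold over the pool (95% confidence interval 0.67 to 2.55), with an adjusted p of 0.992 from limma. At 100 nM it averaged 1.02 ± 1.20, 2.03-fold (1.04 to 3.98), with an adjusted p of 0.503, and at 200 nM 1.63 ± 0.78, 3.09-fold (1.58 to 6.04), with an adjusted p of 0.0744. Its estimate was the 5th highest of the array at 100 nM and the 7th highest at 200 nM. The paper's quantitative RT-PCR with primers for the transcript of this probe used RNA pooled by dose. It lay above the controls at every dose and was highest at 100 nM, not at 200 nM. Turning 50 nM replicate 3 gave 0.61 ± 0.86 at 50 nM, and in that fit the adjusted p at 200 nM became 0.0362. Without 50 nM replicate 1 it was 0.0436. The size of the estimate at 200 nM depended on the background correction, and was 0.86 without background subtraction and 1.17 with plain subtraction, against 1.63 with the correction used. For Myt01-011G05 the same settings gave 1.59 and 1.77, against 1.96.

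**Figure D2:**
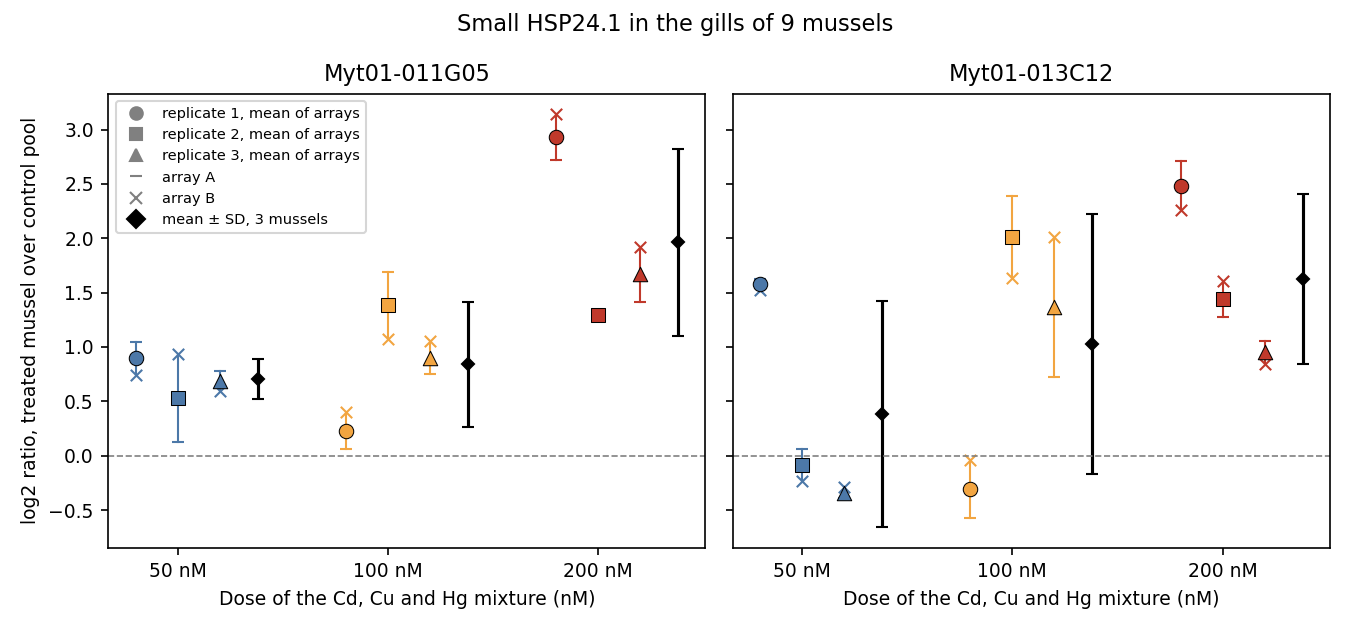
log2 ratio of treated mussel over control pool for each probe, by dose. Large symbols are the 9 mussels, dashes array A, crosses array B, and diamonds with bars the mean ± SD of 3 mussels. As labelled, Myt01-011G05 is above 0 in every mussel, while Myt01-013C12 is below 0 in 3 mussels and spans -0.31 to 2.01 at 100 nM.

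The doses were then compared with each other, where the control pool cancels, and no difference passed the test. For Myt01-011G05 every mussel at 200 nM was above every mussel at 50 nM: the lowest of the 200 nM values was 1.29 and the highest of the 50 nM values 0.89, a separation seen for 7.24% of probes (5.99% with 50 nM replicate 3 turned). The values at 200 and 100 nM overlapped, with 1.29 as the lowest at 200 nM and 1.38 as the highest at 100 nM. The difference of 100 minus 50 nM was 0.13 (95% confidence interval -0.73 to 1.00, adjusted p = 0.998 from limma), and it turned to -0.14 without 100 nM replicate 2. That of 200 minus 50 nM was 1.26 (0.40 to 2.12), a 2.39-fold difference, with an unadjusted p of 0.00813 and an adjusted p of 0.385. That of 200 minus 100 nM was 1.13 (0.26 to 1.99, adjusted p = 0.794). Turning 50 nM replicate 3 gave 0.59 for 100 minus 50 nM and 1.72 for 200 minus 50 nM, and neither passed.

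For Myt01-013C12 every pair of doses overlapped. The difference of 100 minus 50 nM was 0.64 (95% confidence interval -0.73 to 2.01, adjusted p = 0.998 from limma), that of 200 minus 50 nM was 1.24 (-0.13 to 2.61, adjusted p = 0.565), and that of 200 minus 100 nM was 0.60 (-0.77 to 1.97, adjusted p = 0.866). The last of these was -0.063 without 100 nM replicate 1, the mussel with the low value at that dose. Over the 3 doses, the slope per doubling of the dose was 0.63 (95% confidence interval 0.18 to 1.08, adjusted p = 0.341) for Myt01-011G05 and 0.62 (-0.030 to 1.27, adjusted p = 0.496) for Myt01-013C12. Neither slope passed. The turned sign of 50 nM replicate 3 gave 0.41 for 100 minus 50 nM and 1.02 for 200 minus 50 nM on Myt01-013C12, and slopes of 0.86 for Myt01-011G05 and 0.51 for Myt01-013C12, none of which passed. With limma no probe of the array passed in any comparison between doses or for the slope (0% called), against 85 of 1920 probes with an unadjusted p under 0.05 for 100 minus 50 nM, 195 for 200 minus 50 nM, 113 for 200 minus 100 nM and 196 for the slope. With all 18 arrays fitted and the mussel as a random block, 7 probes passed for 200 minus 50 nM and 7 for the slope, and neither probe of small HSP24.1 was among them.

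Both probes ordered the mussels in much the same way. The highest ratio of either probe was in 200 nM replicate 1, and the 3 mussels with Myt01-013C12 at or below the pool were those with the 3 lowest values of Myt01-011G05. Over the 9 mussels Pearson's r was 0.783 (exact permutation p = 0.00586, two-sided) and Spearman's rho was 0.733 (exact permutation p = 0.0311). No other such relation was tested, apart from the repeat of this one without 2 mussels. Without the 2 mussels farthest from the median of Myt01-011G05, 200 nM replicates 1 and 3, r was 0.870 (exact permutation p = 0.00913, n = 7). The permutations moved mussels across doses, so these p values take in differences between doses. Deviations from the dose means, which leave out any difference between doses, gave an r of 0.764, which was not tested. Without 50 nM replicate 3 r was 0.792, and with it turned 0.772. Both probes of a mussel share its slide, labelled RNA and loess fit. Among the 1919 other probes, Myt01-013C12 was the 15th most correlated with Myt01-011G05, and Myt01-011G05 the 25th most correlated with Myt01-013C12 (17th and 27th with 50 nM replicate 3 turned).

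The 2 probes were also compared for the level of their ratio, and no difference was detectable. Myt01-011G05 minus Myt01-013C12 averaged 0.16 ± 0.64 (SD, n = 9 mussels, exact two-sided sign-flip permutation p = 0.480), was above 0 in 5 of 9 mussels and ran between -0.68 in 50 nM replicate 1 and 1.03 in 50 nM replicate 3. The smallest p this test can give is 0.00391. With 50 nM replicate 3 turned the mean difference was -0.070.

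**Figure D3:**
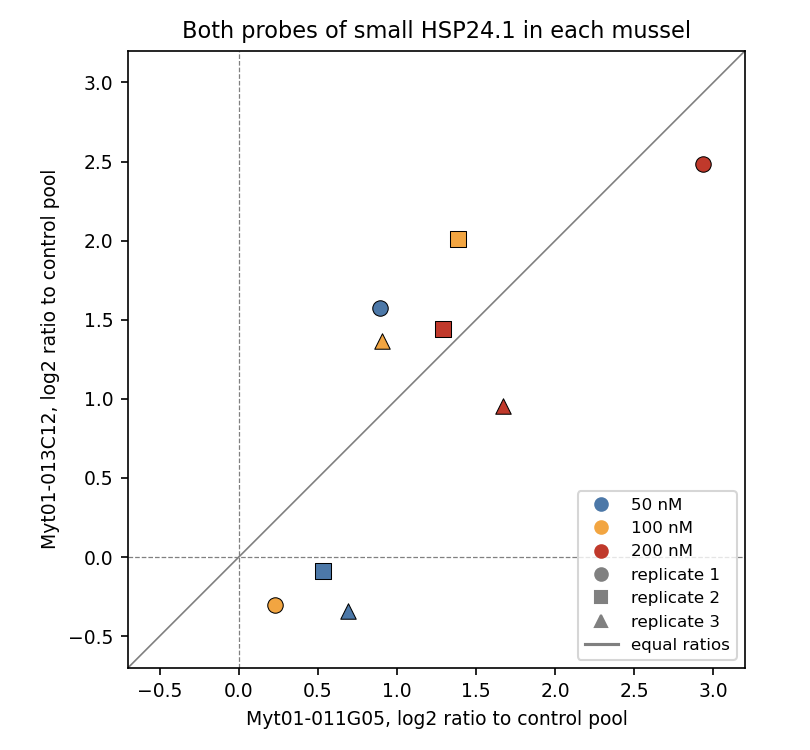
log2 ratio to the control pool of Myt01-013C12 (vertical) against Myt01-011G05 (horizontal) in each of 9 mussels, with colours for doses, shapes for replicates and the line of equal ratios. The points lie along a rising line (r = 0.783), with 200 nM replicate 1 farthest up and 3 mussels below 0 on the vertical axis only.

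The dye exchange gave a repeat of each measurement within a mussel. For Myt01-011G05, arrays A and B read 1.05 and 0.74 in 50 nM replicate 1, 0.13 and 0.93 in replicate 2, and 0.78 and 0.60 in replicate 3. At 100 nM they read 0.058 and 0.41, 1.69 and 1.07, and 0.75 and 1.06, and at 200 nM 2.72 and 3.14, 1.29 and 1.29, and 1.42 and 1.92. All 18 arrays were above 0 as labelled, while both arrays of 50 nM replicate 3 would be below 0 with it turned. The widest gap, 0.80, was in 50 nM replicate 2, and array A minus array B averaged -0.14 ± 0.45 (SD, n = 9 mussels, exact two-sided sign-flip permutation p = 0.379).

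For Myt01-013C12, arrays A and B read 1.63 and 1.52, 0.062 and -0.24, and -0.39 and -0.29 in the 3 mussels at 50 nM. At 100 nM they read -0.57 and -0.040, 2.39 and 1.63, and 0.72 and 2.01, and at 200 nM 2.71 and 2.26, 1.27 and 1.61, and 1.06 and 0.85. The 3 mussels with a mean below 0 were at 0.062 or lower on both arrays, and only 100 nM replicate 3 gave arrays more than 1 apart, by 1.29. Array A minus array B averaged -0.049 ± 0.61 (SD, n = 9 mussels, exact two-sided sign-flip permutation p = 0.816). Over the 9 mussels, arrays A and B had a correlation of 0.852 for Myt01-011G05 and 0.851 for Myt01-013C12, while the median over all probes was 0.159. These correlations include the differences between doses, and the arrays of a mussel share a slide and an RNA extract. Within a dose the order of the mussels was not always kept. At 50 nM, replicate 2 was the lowest for Myt01-011G05 on array A and the highest on array B, and at 100 nM replicates 2 and 3 changed places for Myt01-013C12. Within arrays, the 2 spots of a probe differed by a median of 0.23 for Myt01-011G05 and 0.18 for Myt01-013C12, and by more than 1 on a single array, array B of 50 nM replicate 1, where the spots of Myt01-011G05 gave 1.32 and 0.16.

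The log2 ratios that the authors processed themselves gave smaller means in the same order of doses. In them Myt01-011G05 had 0.78, 0.049 and 0.50 at 50 nM, 0.059, 1.04 and 0.90 at 100 nM, and 2.26, 1.16 and 1.26 at 200 nM. Myt01-013C12 had 0.89, 0.10 and -0.19 at 50 nM, -0.013, 1.33 and 1.00 at 100 nM, and 1.70, 1.03 and 0.57 at 200 nM. At 200 nM the means were 1.56 ± 0.61 (adjusted p = 0.0108 from limma) and 1.10 ± 0.57 (adjusted p = 0.0464), so that on these values both probes passed. As labelled, all 9 mussels again lay above 0 for Myt01-011G05.

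**Figure D4:**
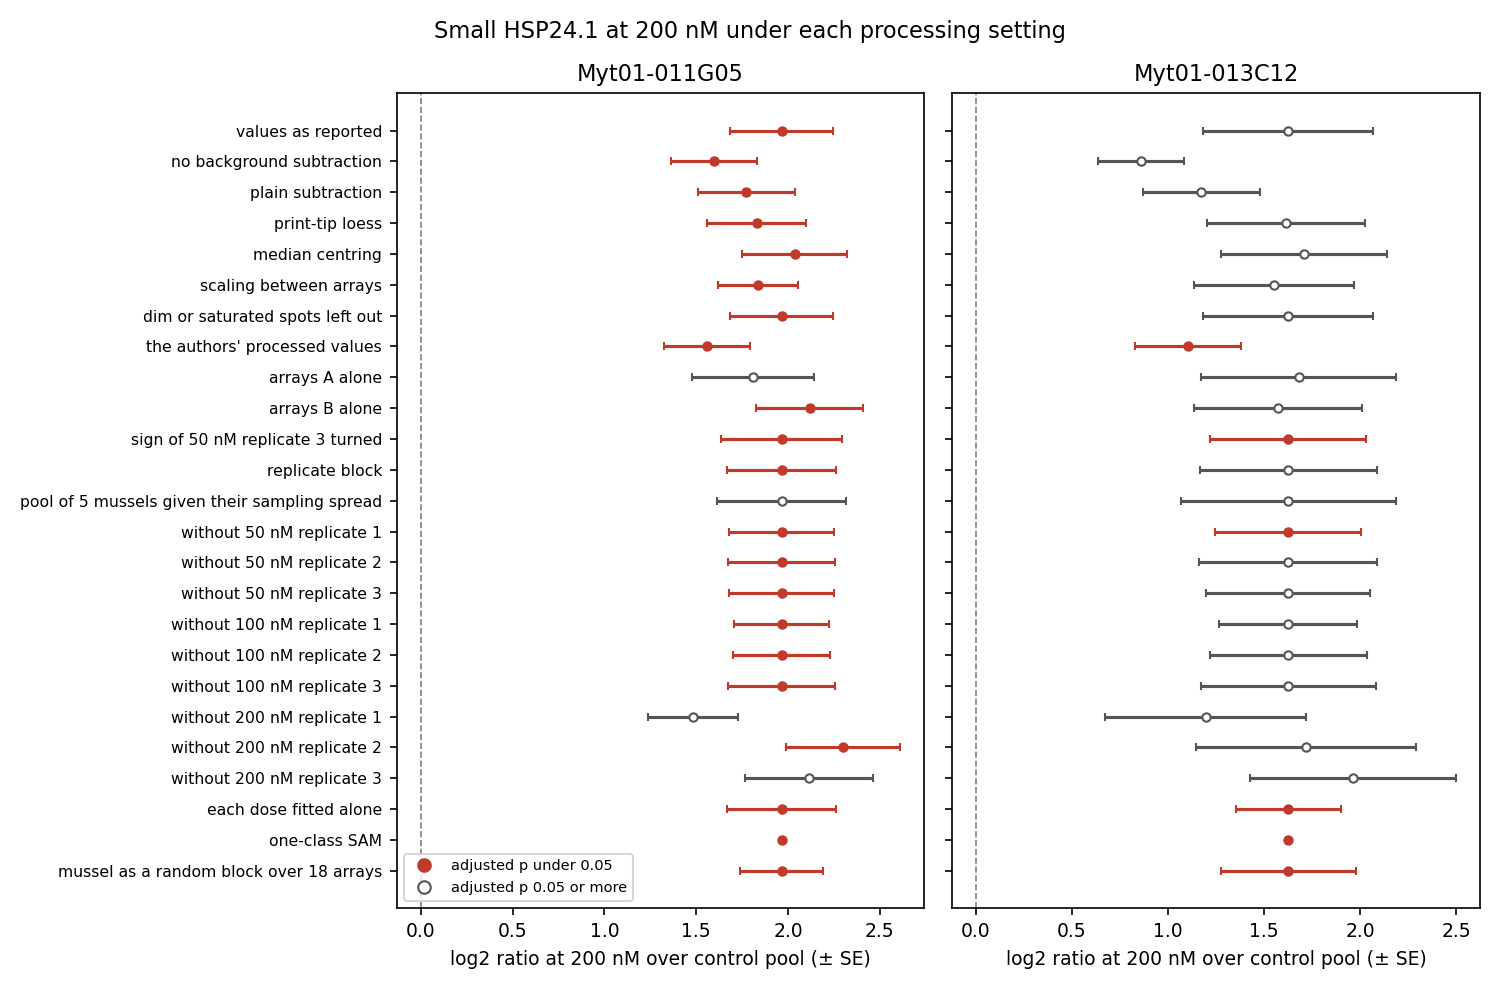
Mean log2 ratio at 200 nM over the control pool, with its SE, for each probe (panels) under each processing setting (rows); filled red symbols have an adjusted p, or for SAM a q value, under 0.05, and SAM gives no SE. The estimate of Myt01-011G05 is between 1.48 and 2.30 in every setting, and that of Myt01-013C12 between 0.86 and 1.96.

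A further probe may or may not belong to the gene. Myt01-005F03 has no described similarity but carries the cluster code of Myt01-013C12 in 1 of the study's tables and another code in a second table, so that its identity is uncertain. Its log2 ratios were 2.10, 1.24 and -0.38 at 50 nM, 1.31, 1.26 and 1.07 at 100 nM, and 2.67, 1.38 and 1.42 at 200 nM. At 200 nM it averaged 1.82 ± 0.74 (SD, n = 3 mussels) and rose with an adjusted p of 0.0372 from limma. Unlike Myt01-013C12, it was above 1 in all 3 mussels at 100 nM, including replicate 1 (1.31, against -0.31 for Myt01-013C12). Its correlation over the 9 mussels was 0.689 with Myt01-013C12 and 0.601 with Myt01-011G05, which placed it 69th among the probes most correlated with Myt01-013C12 and 129th for Myt01-011G05. Once 50 nM replicate 3 was turned these were 0.608 and 0.817, in places 113 and 11, so that the order of the 2 probes changed.

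Small HSP24.1 was next set beside the other chaperones, from a list of 9 further probes of heat shock proteins and folding enzymes. The list was named from tables that the study chose on these samples, so its direction is not independent evidence. At 50 and 100 nM no probe of the list passed, with a median log2 ratio of 0.30 at 50 nM and 0.49 at 100 nM, beside 0.0037 and 0.0042 over all probes. The median at 50 nM was 0.52 with 50 nM replicate 3 turned, and in that fit 2 of the 9 rose at 100 nM, where 9 of all 1920 probes rose. At 200 nM, 4 of the 9 rose and none fell, where 0.885% of all probes rose, with a median of 1.06 beside -0.022 over all probes. HSP70 (Myt01-014B11), the ATP-driven chaperone that refolds clients held by small heat shock proteins, had 1.48 ± 0.34 (adjusted p = 0.0226 from limma). HSP90, the chaperone of signalling proteins, had 1.25 ± 0.054 on Myt01-016G09 (adjusted p = 0.0247) and 1.21 ± 0.40 on Myt01-015D01 (adjusted p = 0.0372). FK506-binding protein, a prolyl isomerase, had 1.06 ± 0.058 (adjusted p = 0.0372). The members of the list that did not pass were HSC70 with 1.26 ± 0.46, chaperonin subunit 7 with 0.97 ± 0.31, heat shock cognate 71 with 0.59 ± 0.43, and the cyclophilins, which are prolyl isomerases as well, with 0.17 ± 0.42 and 0.27 ± 0.16. At 200 nM 6 of the 9 rose with 50 nM replicate 3 turned or left out, where 69 and 56 of all 1920 probes rose. Without 50 nM replicate 2, 2 of the 9 rose, where 4 of all probes rose. None of the 9 rose without any 1 of the 200 nM mussels, where at most 1 of all probes rose.

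In 7 of 9 mussels as labelled the highest ratio of these 11 probes belonged to small HSP24.1. Myt01-011G05 led in 50 nM replicate 3 and 200 nM replicates 1 and 3, and Myt01-013C12 led in 50 nM replicate 1, 100 nM replicates 2 and 3 and 200 nM replicate 2. In 50 nM replicate 3 with its sign turned, Myt01-011G05 was the last of the 11, Myt01-013C12 was 5th, and FK506-binding protein led with 0.65. HSC70 led in 50 nM replicate 2 with 1.56, and FK506-binding protein in 100 nM replicate 1 with 1.46. In that last mussel Myt01-011G05 was 6th and Myt01-013C12 9th of the 11, while HSP70 had 1.24. The per-mussel difference between each probe of small HSP24.1 and each of the 9 others was tested in 18 pairs, a test chosen after the values had been seen, in which deviations of the pool stay in the difference. For Myt01-011G05 the difference was 0.56 ± 0.41 against the second HSP90 probe, Myt01-015D01 (higher in 8 of 9 mussels, exact sign-flip permutation p = 0.0469 after adjustment over 18 pairs), and 1.20 ± 0.62 and 1.13 ± 0.68 against the cyclophilins Myt01-006A07 and Myt01-009D06 (higher in 9 of 9 mussels, adjusted exact permutation p = 0.0352 each). It was 0.46 ± 0.55 against HSP90 probe Myt01-016G09 (adjusted exact permutation p = 0.0820) and 0.30 ± 0.65 against HSP70 (adjusted exact permutation p = 0.303). For Myt01-013C12 none of the 9 differences passed, and its 3 lowest adjusted values were 0.0820, 0.0820 and 0.188. None of the 18 differences passed with 50 nM replicate 3 turned, where 2 of 9 for each probe had an unadjusted exact permutation p under 0.05. Those of Myt01-011G05 were then 0.38 ± 0.60 against Myt01-015D01 (higher in 7 of 9 mussels, adjusted exact permutation p = 0.256), 1.14 ± 0.74 against Myt01-006A07 (8 of 9, adjusted exact permutation p = 0.0703) and 0.94 ± 0.95 against Myt01-009D06 (8 of 9, adjusted exact permutation p = 0.105). The calls against these 3 probes thus rest on the labelled direction of 1 mussel.

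**Figure D5:**
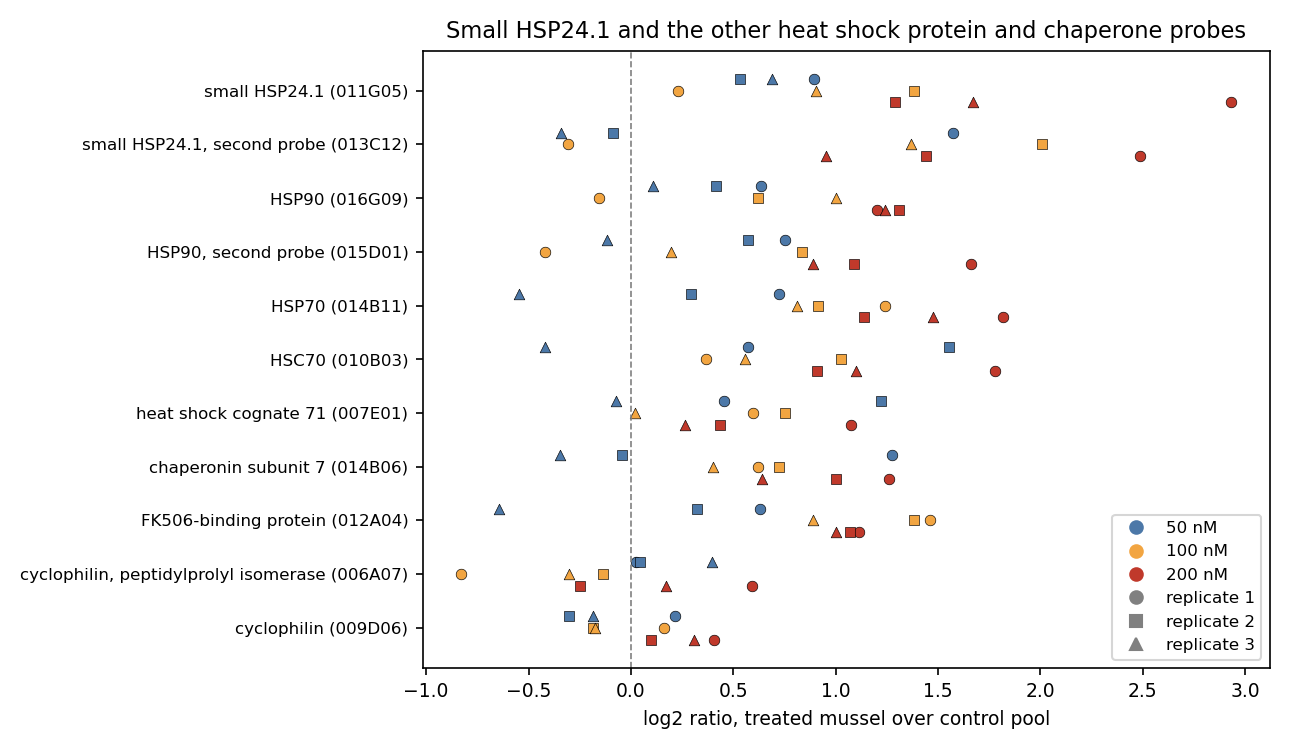
log2 ratio of treated mussel over control pool (horizontal) in each of 9 mussels for both probes of small HSP24.1 (top) and 9 other heat shock protein and chaperone probes, with colours for doses and shapes for replicates. The 2 probes of small HSP24.1 hold the highest values, 2.93 and 2.49, both in 200 nM replicate 1, while the cyclophilins stay between -0.83 and 0.59. Mussels are shown as labelled.

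Outside the chaperones, SQSTM1, a ubiquitin-binding receptor that delivers aggregated proteins to autophagy, reached 4.82 ± 0.74 at 200 nM (adjusted p = 0.0360 from limma) and ran from 4.32 to 5.67 there. MT10B, a metallothionein that binds Cd, Cu and Hg through its cysteines, had 1.67 ± 0.98 (adjusted p = 0.0529), and ferritin, which stores iron, had 0.88 ± 0.37 (adjusted p = 0.0905). The mussel with the highest small HSP24.1 also had the highest values of these 3 genes. In 200 nM replicate 1 SQSTM1 was at 5.67, MT10B at 2.48 and ferritin at 1.31. In 50 nM replicate 3 they were at -2.43, -1.66 and -1.21, the lowest of all mussels, while Myt01-011G05 was at 0.69. With the sign of this mussel turned, Myt01-011G05 would be below the pool there and these 3 genes above it. Of 13 probes of ubiquitin and the proteasome, SQSTM1 and the proteasome subunit alpha type 2, named here after its values had been seen, rose at 200 nM and none fell (median 0.53), and of 7 probes of metal binding and antioxidant proteins none passed (median 0.48), where 2.03% of all probes passed. In the fit with 50 nM replicate 3 turned, 6 of the 13 and 3 of the 7 rose at 200 nM, where 120 of all 1920 probes passed.

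The 5 probes most like the mean of both small HSP24.1 probes over the 9 mussels, by Pearson's r, were GADD45 gamma (Myt01-006C05, r = 0.933), a stress-induced regulator of growth arrest, Myt01-012F02 without described similarity (r = 0.925), polyubiquitin (Myt01-006B11, r = 0.921), the precursor of the ubiquitin tags that mark proteins for degradation, Myt01-018B10 without described similarity (r = 0.903), and the second HSP90 probe, Myt01-015D01 (r = 0.882). These are descriptions over 9 mussels that share their arrays, picked as the highest of 1918 probes. Deviations from the dose means gave 0.886, 0.896, 0.886, 0.853 and 0.895 in the same order. MT10B was 9th with an r of 0.858. With 50 nM replicate 3 turned, r was 0.925, 0.722, 0.809, 0.814 and 0.864 for the 5 probes, and they took places 1, 34, 13, 12 and 6, while MT10B was in place 134 with 0.582. GADD45 gamma averaged 0.13 at 50 nM and 0.34 at 100 nM, and had 1.71, 0.52 and 0.90 in 200 nM replicates 1, 2 and 3 (mean 1.04, adjusted p = 0.0503 from limma). Polyubiquitin had 2.00, 0.36 and 0.65 at 200 nM (mean 1.00, adjusted p = 0.102), and like small HSP24.1 it was highest in 200 nM replicate 1. Only Myt01-018B10 (1.11 ± 0.67, adjusted p = 0.0372) and the second HSP90 probe among these 5 rose at 200 nM.

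Markers of the cell types that a gill sample can hold were read from lists of the same tables. Probes of cilia, the mark of the gill epithelium, had median log2 ratios of -0.24 at 50 nM, -0.52 at 100 nM and -0.60 at 200 nM, where 8 of 9 had a negative estimate and the mussel medians ran from -0.70 to -0.41. They made up 0.831 to 2.52% of the signal above background of the mussels at 200 nM and 1.19 to 3.15% of that of the pool. The 4 haemocyte markers had a median of -0.54 at 200 nM and took 0.156 to 0.218% of the signal of the mussels and 0.185 to 0.334% of that of the pool. The medians were -0.21 for 4 markers of muscle, -0.33 for 10 of foot and byssus and 0.030 for 4 of the digestive gland. No marker passed at any dose with limma. With 50 nM replicate 3 turned, 3 cilia probes, 1 haemocyte probe and 1 muscle probe fell at 200 nM, 1 cilia probe rose there and 1 fell at 100 nM. Of all 1920 probes, 51 fell and 69 rose at 200 nM in that fit, and 6 fell at 100 nM. No marker was at 0, since each probe of these lists was over 2 SD above background in at least 97.2% of its spots in either channel. The part of these shifts in the ratios of small HSP24.1 was not tested.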

How the data were processed

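Gill RNA of 9 treated mussels was hybridised against 1 pool of 5 control mussels on 18 two-colour cDNA arrays of 3840 spots. The deposited intensity and local background values were read by the authors with ScanArray Express. Per the file headers the data are background subtracted, but the ratios listed in 1 of the 18 files equal those of intensity minus background (3836 of 3840 spots, within 1e-05), so intensities were taken as before subtraction. The authors' deposited log2 ratios, for which MIDAS was used with total and LOWESS normalization, served as an alternative. Their column medians were -0.0135 to 0.0345, and whether background was subtracted first is not given in the sources used here. File headers set the direction, mussel over pool.

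Background was corrected by normexp (offset 50), ratios were normalized by loess within arrays (span 0.3, 4 iterations) and spots, then arrays, were averaged. The fit of 1 mean per dose used limma 3.58.1 (R 4.3.3), with contrasts between doses and a slope on log2 dose, adjusted over 1920 probes. One-class SAM, with sign flips over the mussels, was coded here. Random blocks used statmod 1.5.0, and exact tests Python 3.11.15. The fits were tested on simulated data. No depth exists for arrays, and 3 mussels per dose limit the precision.

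The members and lists were chosen with earlier results of these data known. Named are the 2 members, the chaperone list, SQSTM1, MT10B, ferritin, Myt01-005F03 and the 5 probes most correlated with the members' mean. For 100 nM replicate 1, the control image named in array A differs from that of the other arrays, and the values were used as labelled. Replicate numbers only name mussels. Alternatives changed the background correction, normalization, spots, arrays, mussels and test.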

Additional observations from a re-analysis of the deposited data

How the results depend on the processing

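The call of Myt01-011G05 at 200 nM (1.96, adjusted p = 0.0226) was lost with arrays A alone (1.81, adjusted p = 0.0800) and with the sampling spread of the pool (1.96, adjusted p = 0.180), and held in the 13 other settings. With 1 mussel left out it ran from 1.48 to 2.30 (adjusted p = 0.00703 to 0.107), lost without 200 nM replicate 1 or 3. Myt01-013C12 at 200 nM (adjusted p = 0.0744) passed with the authors' values (1.10, adjusted p = 0.0464) and, at 1.63, with 50 nM replicate 3 turned (0.0362), each dose fitted alone (0.0365), SAM (0.0197), the mussel as a random block (0.00658) and without 50 nM replicate 1 (0.0436). With 1 mussel left out it ran from 1.20 to 1.96. The random block used 1 correlation between the arrays of a mussel for all probes, 0.070. Its fit thus took these arrays almost as separate replicates, which lowers its p values. For small HSP24.1, arrays A and B correlated at 0.852 and 0.851 over the mussels, differences between doses included. Neither probe passed at 50 or 100 nM, between doses or for the slope under any setting used here.

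With 1 mussel left out, Myt01-011G05 ran from 0.61 to 0.79 at 50 nM, 0.57 to 1.14 at 100 nM, -0.14 to 0.44 for 100 minus 50 nM, 0.77 to 1.60 for 200 minus 50 nM, 0.64 to 1.46 for 200 minus 100 nM and 0.37 to 0.75 for the slope. Myt01-013C12 ran from -0.21 to 0.74, 0.53 to 1.69, 0.15 to 1.31, 0.81 to 1.84, -0.063 to 1.09 and 0.42 to 0.90 in the same order. The negative ends came without 50 nM replicate 1 (Myt01-013C12 at 50 nM), 100 nM replicate 2 (Myt01-011G05) and 100 nM replicate 1 (Myt01-013C12).

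The difference between the probes turned to -0.023 with print-tip loess and -0.070 with 50 nM replicate 3 turned (0.050 to 0.26 with 1 mussel left out). That between dye orientations turned to 0.030 for Myt01-011G05 with the authors' values (-0.24 to -0.058 with 1 mussel left out), and for Myt01-013C12 to 0.012 and 0.11 without 100 nM replicate 1 or 3 (-0.15 to 0.11). Alternatives for these differences were chosen after seeing the data, and the cause of the turns was not tested.

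The replicate numbers did not pair the mussels: same-numbered deviations correlated at -0.10 to 0.15, and 4 of 9 mussels correlated best with their own number. With the replicate number as a replicate block, no call of small HSP24.1 changed (adjusted p at 200 nM 0.0251 and 0.0968), and 16 probes passed at 200 nM in place of 39. That count was 0 to 97 with 1 mussel left out, 120 with 50 nM replicate 3 turned, 171 with SAM, 108 with the authors' values, 97 with plain subtraction, 78 with print-tip loess, 61 without subtraction, 65 with doses fitted alone, 164 with the random block, 20 with median centring, 3 with arrays B alone and 0 with arrays A alone or the pool's spread added.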
